A study of Mus musculus with 7 samples.

Results

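HM-1-control cells are cultured cells of OV2944-HM-1, a mouse ovarian cancer line, carrying a non-silencing lentiviral hairpin. Their baseline expression was described from 3 arrays. The study asked what changes in these cells when Snail, a transcription factor of the epithelial-mesenchymal transition (EMT), is depleted, and its other arrays held HM-1-shSnail cells, 2 with the hairpin sh1 and 2 with the hairpin sh2. All 7 samples were therefore the same line, grown in vitro in MEMα with fetal bovine serum, with a lentiviral vector integrated, and control differed from shSnail in the hairpin. Arrays of a group carry biological replicate labels, yet separate cultures or transductions are stated in neither the labels nor the methods, so errors and p-values below measure the spread between these samples, which may be technical. Total RNA was hybridised to a whole-transcriptome array whose rows are transcript clusters, probe sets that each cover 1 transcribed locus. Of 65770 clusters, 30473 carried exactly 1 gene symbol, standing for 30137 genes, and these were ranked by their mean log2 signal over the 3 control arrays. A cluster was called above the bar when that mean exceeded 7.79, the 95th percentile of 5222 negative control rows on the same arrays. Of the one-symbol clusters, 8650 were above the bar, which is 28.4%. With 1 cluster per gene the count was 8581 genes, 28.5% of 30137, and of 19045 protein-coding genes 6323 were above, 33.2%.

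The bar is a property of signal, not of RNA. The negative control rows had a median of 4.83 and a 99th percentile of 11.5, and by construction 262 of them lay above the bar. Probes differ in their response, so a rank is a rank of signal, each cluster was read against the bar only, and a signal below it does not show that the RNA was absent. Just above the bar were Atp5k, Trappc12 and the microRNA gene Mir3473b, all with a mean of 7.79, and just below it Fbxl4, 9430015G10Rik and Tubg2, at 7.79, 7.79 and 7.78. In all, 1787 clusters lay within 0.5 log2 of the bar. The 3 arrays were close to each other: among clusters above the bar the range over the arrays had a median of 0.09 and a 95th percentile of 0.39. Part of this closeness stands in the values as deposited, since in 20.9% of one-symbol clusters, and in 9.04% of those above the bar, the 3 control values were exactly equal. An SD of 0 below is therefore a property of the table and not an error of the measurement.

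**Figure D1:**
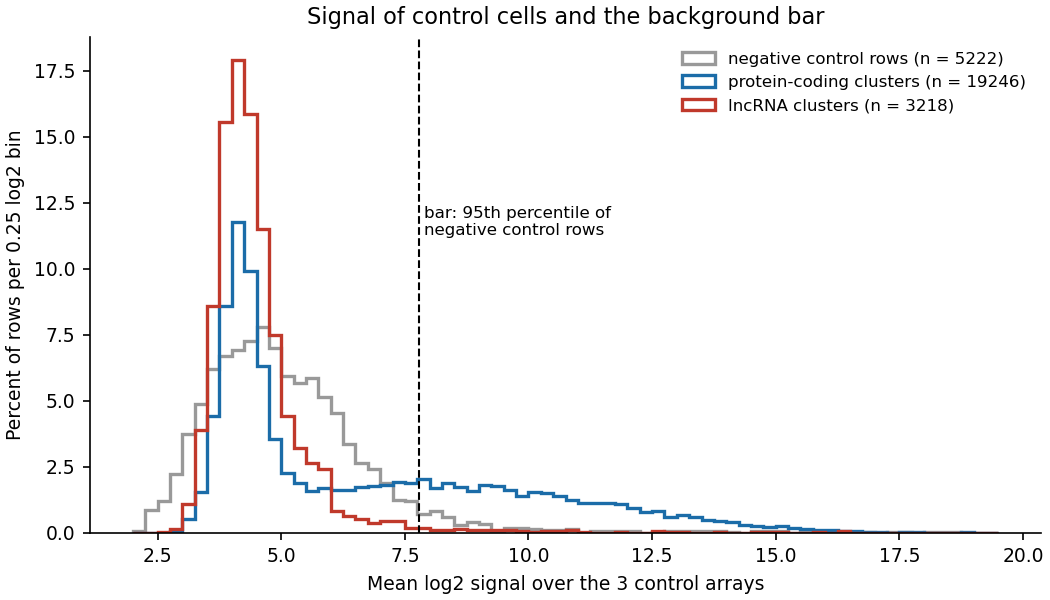
Distribution of the mean log2 signal over the 3 control arrays (x axis) as percent of rows per 0.25 log2 bin (y axis) for negative control rows, protein-coding clusters and lncRNA clusters, with the bar at 7.79 as a dashed line. Protein-coding clusters have a long shoulder to the right of the bar, where 33.1% of them lie, while 1.71% of lncRNA clusters do.

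Epithelial cells are recognised by keratin filaments and by adherens and tight junctions, mesenchymal cells by vimentin and a fibrillar matrix. In EMT, transcription factors of the Snail, Zeb and Twist families repress junction genes such as Cdh1, and carcinoma cells can carry parts of both programs. In HM-1-control cells filament genes of both programs had high signals, while many other genes of each program were under the bar. The simple epithelial keratin Krt18 had log2 signals of 16.66, 16.59 and 16.62 on control replicates 1, 2 and 3. Its filament partner Krt8 had 16.48, 16.47 and 16.45, and Krt19, another simple epithelial keratin, had 15.77, 15.85 and 15.66. Vim, the mesenchymal filament vimentin, had 17.89, 17.86 and 17.89, the second highest signal of any protein-coding cluster at its own locus. All 4 filament genes lay above 11.5, the 99th percentile given above, on every control array. Of 49 keratin genes 4 were above the bar, these 3 and Krt80 at 9.82.

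Junction genes divided the other way. Cdh1, which encodes E-cadherin, had 3.81, 3.86 and 3.81, lower than the median of the negative controls on every array. Epcam, an epithelial adhesion protein, was listed at 4.17 on each array, Krt7 at 5.02, and Cldn7, a tight junction claudin, at 4.73. Above the bar stood Tjp1 (mean 13.74), the tight junction scaffold ZO-1, Cldn6 (12.29), an embryonic claudin, Pkp2 (10.64) and Jup (9.84), which belong to desmosomes, and F11r (10.28), a junctional adhesion molecule. In all, 5 of 19 measured epithelial junction genes, 5 of 12 simple epithelial keratin and surface genes and 1 of 16 epithelial regulators were above, with list medians of 4.73, 5.26 and 4.25 against 4.99 over all genes. The 1 regulator was Klf5, a transcription factor of basal and progenitor epithelium, at 7.94. Elf3, Grhl2 and Esrp2, which support epithelial identity, had means of 6.50, 5.34 and 5.25, all under the bar.

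Of mesenchymal and stromal genes 6 of 24 were above, with a median of 4.44. This share of 25% is under the 28.5% of all genes and the 33.2% of protein-coding genes. Beside Vim these were Sparc (13.27), a matricellular protein, Fn1 (13.24), fibronectin, S100a4 (12.36), Cd44 (12.10), the hyaluronan receptor, and Itga5 (10.80), the fibronectin receptor subunit. N-cadherin did not take the place of E-cadherin in signal: Cdh2 had 4.81, 4.83 and 4.81. Col1a1 and Acta2, of fibroblasts and myofibroblasts, were listed at 4.71 and 4.72 on every array, and of 42 collagen genes 3 were above the bar, led by Col18a1 at 10.33. Of 9 measured EMT transcription factors 3 were above. Twist2 had 11.998, 12.10 and 12.20, far from the bar, whereas Zeb1 (8.41, 8.34 and 8.34) and Twist1 (7.93, 7.77 and 7.95) were close to it, and Twist1 fell under 7.79 on control replicate 2. Snai1, the gene that both hairpins target, had 6.61, 6.69 and 6.70 on the control arrays, under the bar, and 6.80, 6.55, 6.69 and 6.77 on the shSnail arrays. The groups overlapped and the difference was 0.03 with a standard error of 0.07 (limma, a linear model with variances moderated across all clusters, adjusted p = 0.852). The depletion is thus not visible in this cluster, and whether the cluster responds to its transcript was not tested. The paper examined nuclear Snail protein by western blot and describes HM-1-shSnail as a Snail-depleted line, so this row does not show that the depletion failed. Zeb2 had no cluster with exactly 1 symbol and was not analysed here.

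**Figure D2:**
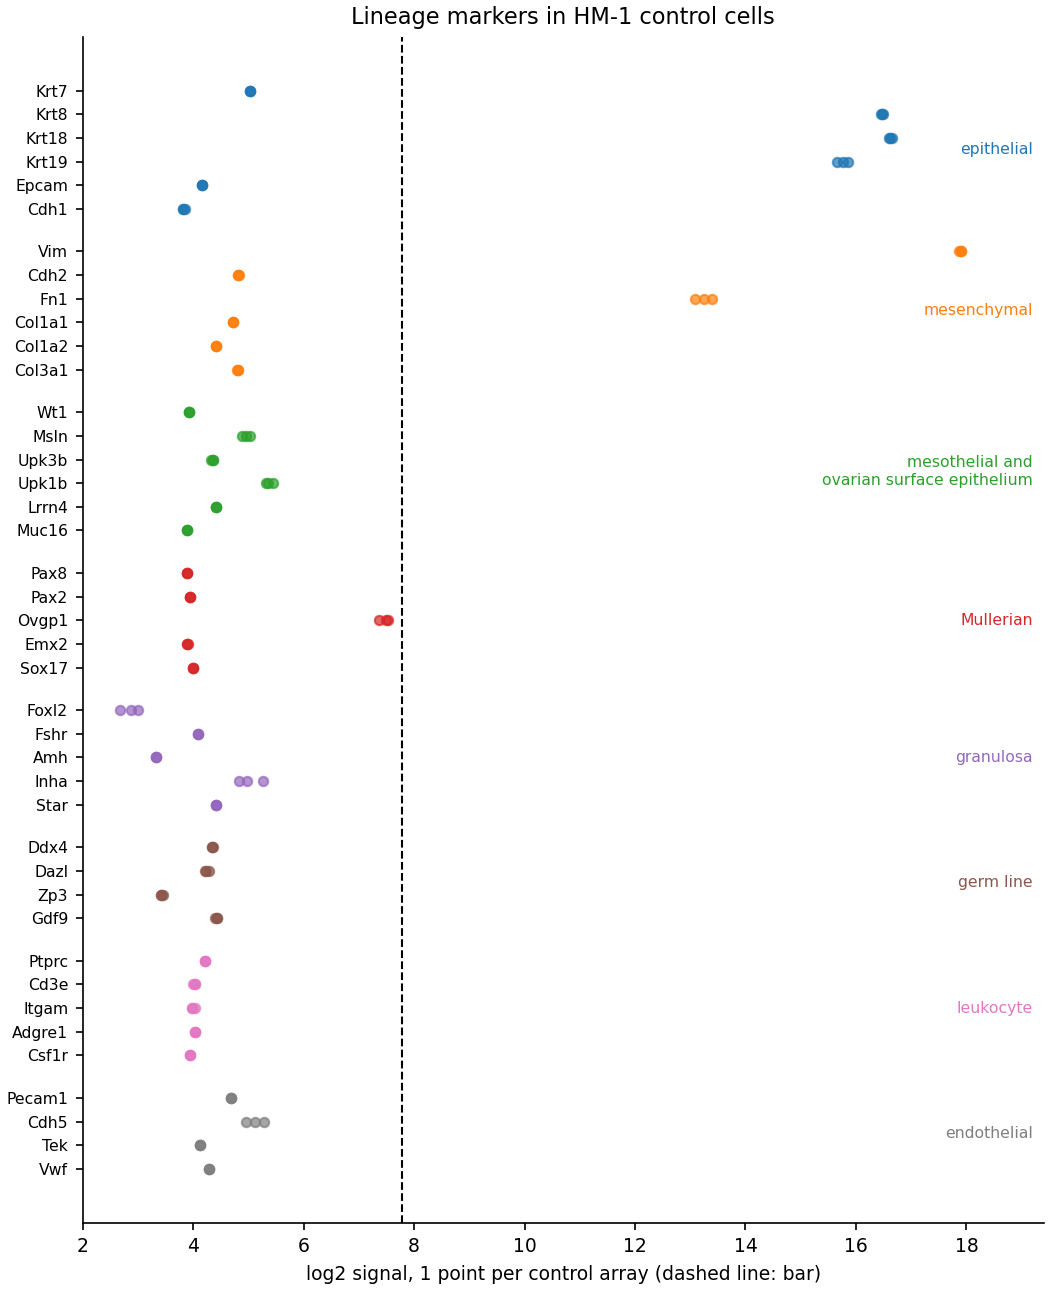
Log2 signal of lineage marker genes in HM-1-control cells, 1 point per control array (x axis), with genes grouped by the cell type they mark (y axis) and the bar as a dashed line. Krt8, Krt18, Krt19, Vim and Fn1 lie above the bar on every array, and all measured mesothelial, Mullerian, granulosa, germ line, leukocyte and endothelial markers lie below it.

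The miR-200 family is the best known microRNA counterpart of the Zeb factors: its mature forms repress Zeb1 and Zeb2, and its genes are on in epithelia. Its members carry 2 kinds of seed, the stretch that pairs with targets. The mature sequences are shown because the family bears on the position of these cells between keratin and Zeb1 signal; the seed, bases 2 to 8, is in capitals (RefSeq, GRCm38.p6, minus strand of chromosomes 4 and 6).
mmu-miR-200b-3p: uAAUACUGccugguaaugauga
mmu-miR-200c-3p: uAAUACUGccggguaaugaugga
mmu-miR-200a-3p: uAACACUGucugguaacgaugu
mmu-miR-141-3p: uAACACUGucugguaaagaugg
The array rows cover the microRNA genes, not the mature strands. Mir200b had 4.42, 4.30 and 4.08 on the control arrays, Mir200a 4.31, 4.40 and 4.47, Mir200c 4.23, 4.30 and 4.15, and Mir141 5.17, 5.31 and 4.81. These 4 genes were under the bar on every array, and other members of the family were not read here. Few microRNA genes were above it, 48 of 606 clusters (7.92%), so a level under the bar was the usual one for this kind of row. Several of the brightest microRNA rows were not unique: Mir684-1 had 6 clusters on 6 chromosomes, of which 5 had identical control values.

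The label gives ovarian cancer as the tissue, yet no list of ovarian cell types had a member above the bar. This held for 0 of 18 genes of ovarian surface epithelium and mesothelium, 0 of 12 of the Mullerian duct and oviduct, 0 of 10 of granulosa and steroidogenic cells and 0 of 14 of germ line and pluripotency, against 28.5% of all genes. Wt1, the mesothelial transcription factor, was listed at 3.92 on each array, and Pax8, the Mullerian transcription factor, at 3.89. Msln, the mesothelial surface protein mesothelin, had 4.95, 4.88 and 5.03. Foxl2, which maintains granulosa cells, had 2.88, 3.001 and 2.68. Closest to the bar were Ovgp1, an oviduct glycoprotein, at 7.49, 7.37 and 7.52, and Aldh1a1, a retinal dehydrogenase of ovarian surface epithelium, at 7.002, 7.10 and 7.01. These markers thus gave the line no ovarian cell type, and it is called by its name here. Esr1 and Pgr, the receptors of oestrogen and progesterone, were listed at 4.82 and 4.05 on all arrays.

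Lists of other cell types were read against the same 28.5% of all genes, and the leukocyte list (20%) and the neuronal list (23.1%) came nearest to it. Of 15 leukocyte genes 3 were above the bar: Cd14 (9.19, 9.005 and 9.15), a co-receptor for bacterial lipopolysaccharide, Cd68 (8.81, 9.04 and 8.72), a lysosomal protein, and Ly6g (8.01, 8.01 and 7.74), a neutrophil surface protein. The defining pan-leukocyte gene Ptprc was listed at 4.22 on every array, and Cd3e, Itgam, Adgre1 and Csf1r were also under the bar. Of 12 endothelial genes only Flt1, a VEGF receptor, was above, at 9.22, 9.26 and 9.02, with Pecam1, Cdh5, Tek and Vwf below. Snap25 (9.95), Syn1 (9.59) and Tubb3 (8.75), of synapses and the neuronal cytoskeleton, were the 3 of 13 neuronal genes above, and Tnnt2 (8.39), cardiac troponin T, the 1 of 16 muscle genes. All of these were under 11.5, and a bar set there would hold none of them. No hepatocyte gene (of 12), erythroid gene (of 5) or Y-linked gene (of 8) was above. On the Y chromosome 0 of 80 protein-coding clusters were above the bar, and Xist was listed at 4.32 on every array.

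Large families of specialised tissues were also under the bar almost to the last gene. Of 1224 olfactory receptor genes 1 was above, Olfr1055 at 8.93, and of 305 immunoglobulin and T cell receptor segments 1, Trav13n-4 at 8.18. None of 492 vomeronasal receptors, 35 bitter taste receptors, 48 keratin-associated proteins, 39 beta-defensins or 33 Hox genes was above. The Hox genes pattern the body axis and the reproductive tract, and the highest of them was Hoxc6 at 6.38. In the prolactin family, whose members beyond prolactin itself are mostly placental hormones, 2 of 21 genes were above, and Prl2c2, proliferin, had 12.19, 12.31 and 12.29. Machinery of every cell stood at the other end: 35 of 41 cytosolic ribosomal proteins, 32 of 38 proteasome subunits and 32 of 47 complex I subunits were above. These families were defined by symbol after the values had been seen, and they serve as a description of the range.

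**Figure D3:**
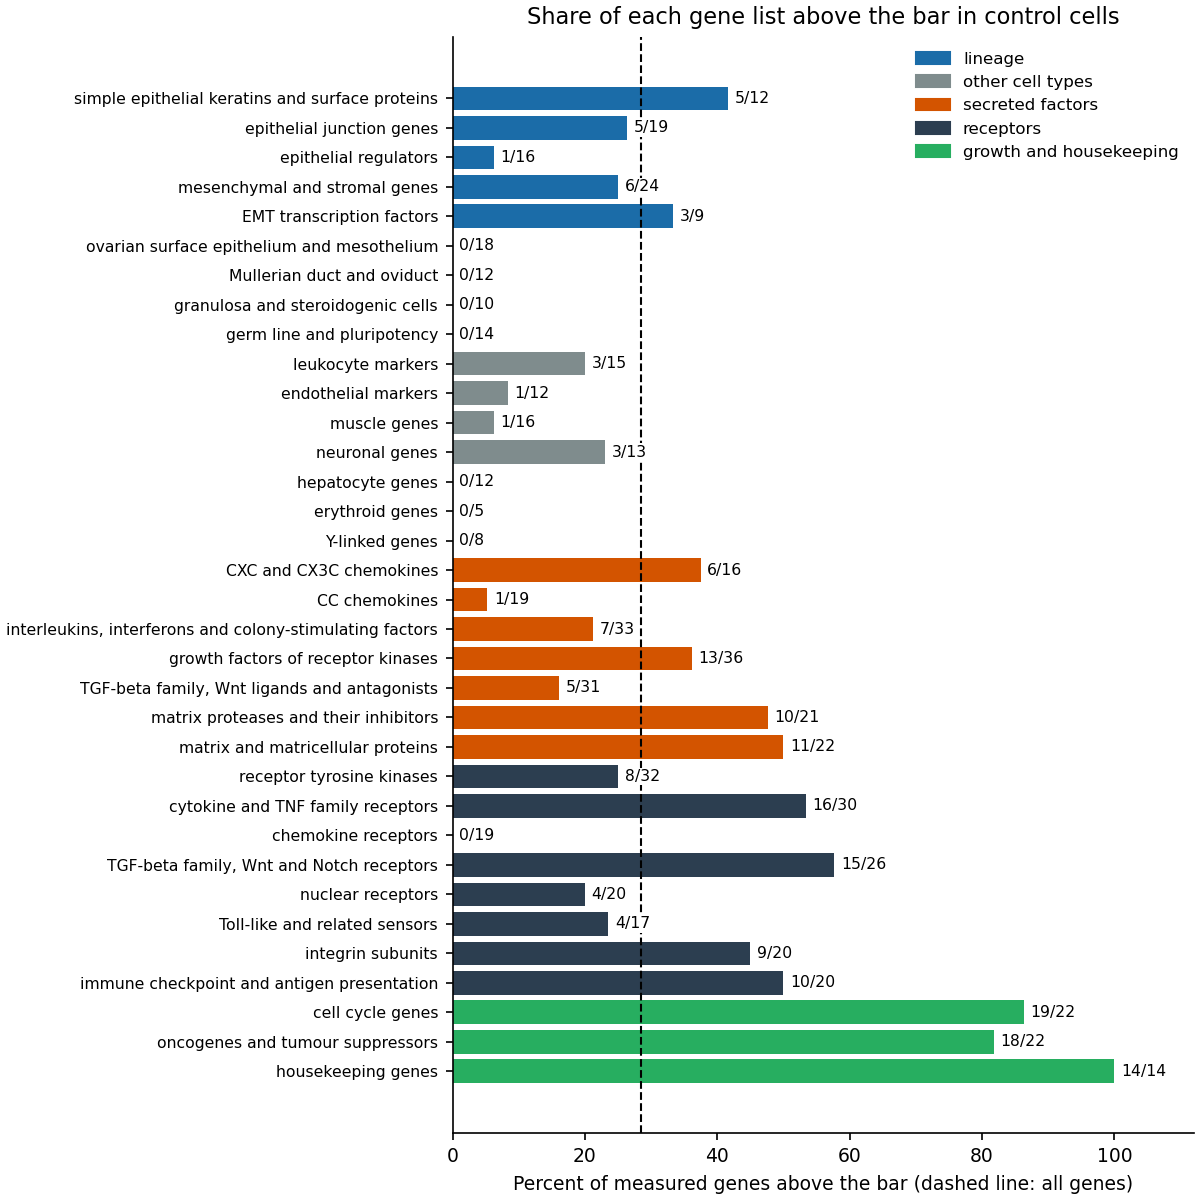
Percent of the measured genes of each list above the bar in HM-1-control cells (x axis), with the count beside each bar and the share over all genes, 28.5%, as a dashed line. Growth and housekeeping lists are at the right, ovarian and other cell type lists and the chemokine receptors at the left.

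Secreted factors were above the bar in 53 of 178 genes (29.8%), between the 28.5% of all genes and the 33.2% of protein-coding genes. Chemokines are small secreted proteins that attract leukocytes; those with the CXC motif and an ELR sequence act on Cxcr2 of neutrophils, and Ccl2 acts on Ccr2 of monocytes. Of 16 CXC and CX3C chemokines 6 were above the bar. Cxcl3 had 16.53, 16.68 and 16.48, Cxcl5 11.30, 12.01 and 11.06, and Cxcl2 11.06, 11.47 and 10.71, and all 3 encode Cxcr2 ligands. Ppbp, which also encodes a ligand of that receptor, had 8.04, 8.56 and 8.06. In each of these 4 genes control replicate 2 was the highest. The other members above were Cx3cl1 (8.53), a membrane-bound chemokine, and Cxcl16 (8.42). Cxcl10, an interferon-induced attractant of T cells, had 4.55, 4.52 and 4.61.

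Cxcl1, the neighbour and close relative of Cxcl2 and Cxcl3, had 4.42, 4.47 and 4.29, lower than the median of the negative controls. The genes lie on the plus strand of chromosome 5 in the order Cxcl3, Cxcl1, Cxcl2, with the Cxcl1 and Cxcl2 start sites 12654 bases apart. By RT-PCR the paper did measure Cxcl1 in HM-1-control cells, with lower levels in HM-1-shSnail cells. Cxcl1 can therefore not be called silent from this row, and whether the cluster responds to its transcript was not tested. The promoters are shown because these neighbouring genes hold the same element. The windows run from 250 bases before to 50 after the start site (RefSeq, GRCm38.p6, chr5:90785851-90786150, chr5:90890995-90891294 and chr5:90903649-90903948, plus strand). Capitals mark matches to GGGANNTTCC, a form of the NF-κB site, searched on both strands; the forward and reverse matches overlap and shift by 1 base.
Cxcl3: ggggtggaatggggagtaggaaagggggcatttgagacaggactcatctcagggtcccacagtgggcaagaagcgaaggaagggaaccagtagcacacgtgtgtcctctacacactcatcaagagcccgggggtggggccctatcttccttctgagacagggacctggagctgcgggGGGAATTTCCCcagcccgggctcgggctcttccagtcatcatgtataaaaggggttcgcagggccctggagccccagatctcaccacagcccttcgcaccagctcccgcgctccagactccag
Cxcl1: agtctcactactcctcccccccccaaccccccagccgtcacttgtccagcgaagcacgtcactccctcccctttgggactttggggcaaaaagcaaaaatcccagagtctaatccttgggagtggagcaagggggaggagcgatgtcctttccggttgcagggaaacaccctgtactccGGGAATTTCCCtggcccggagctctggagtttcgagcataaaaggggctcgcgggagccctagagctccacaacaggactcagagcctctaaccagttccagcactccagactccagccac
Cxcl2: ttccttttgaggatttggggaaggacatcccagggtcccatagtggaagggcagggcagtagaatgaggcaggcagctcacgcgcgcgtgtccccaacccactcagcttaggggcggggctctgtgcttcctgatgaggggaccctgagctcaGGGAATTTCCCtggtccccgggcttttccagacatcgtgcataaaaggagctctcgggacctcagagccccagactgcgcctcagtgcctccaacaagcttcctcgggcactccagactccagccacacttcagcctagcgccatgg
The match starts 73, 71 and 97 bases before the start sites of Cxcl3, Cxcl1 and Cxcl2. Of 32851 promoter windows of this length, 482 (1.47%) hold the motif. A match in letters is a description and says nothing of binding. Rela, the p65 subunit of NF-κB, had 14.35, 14.35 and 14.37.

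Among 19 CC chemokines 1 was above the bar. Ccl2, the monocyte attractant, had 15.08, 15.26 and 14.91, while Ccl20, Ccl25 and Ccl7 lay just under the bar with means of 7.39, 7.37 and 7.12. In shSnail Ccl20 and Ccl7 were lower still, by -1.93 and -2.39 (limma adjusted p = 0.0236 and 0.0125). Leaving out 1 array lost the call for 6 arrays in Ccl20 and for 3 in Ccl7. Of 33 interleukins, interferons and colony-stimulating factors 7 were above: Mif (15.65), a pleiotropic cytokine, Il1rn (13.23), the antagonist of the IL-1 receptor, Csf1 (11.37), the macrophage growth factor, Lif (10.74), Il34 (9.23), a second ligand of the Csf1 receptor, Clcf1 (8.03) and Csf2 (7.82). Il6 and Il1b, the classical inflammatory cytokines, had means of 3.67 and 3.82. The inhibitor of IL-1 signalling was thus above the bar while Il1b was not.

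Growth factors of receptor kinases were above in 13 of 36 genes, and ligands of the EGF receptor led the list. Ereg had 12.76, 12.78 and 12.71, Hbegf 12.80, 12.67 and 12.69, and Btc 12.14, 12.25 and 11.95, with Tgfa at 10.30, 10.25 and 10.20. Kitl (12.56), the ligand of Kit, Efnb2 (12.49), an ephrin, Vegfb (11.75), Vegfa (8.93), Vegfc (8.78), Pgf (8.86) and Pdgfc (9.10) were also above. Of 31 TGF-beta family and Wnt genes 5 were: Tgfb1 (13.55), Bmp4 (12.66), Fst (11.77), an activin antagonist, Bmp1 (8.88), a procollagen protease, and Inhba (7.87), an activin subunit.

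Proteases and matrix gave the higher shares among secreted genes. Of 21 matrix proteases and inhibitors 10 were above, led by the lysosomal protease Ctsl (17.53), the collagenase Mmp13 (16.70, 16.90 and 16.44) and Ctsb (16.13). The inhibitors Timp2 (14.57) and Timp1 (11.30), the sheddases Adam10 (14.13) and Adam17 (12.31), and Mmp10 (11.28), Plau (9.83), which activates plasminogen, and Mmp14 (8.81) completed them. Of 22 matrix and matricellular genes 11 were above, among them the galectin Lgals1 (17.57) and the basement membrane components Nid1 (15.20), Lamc1 (12.69), Lamb1 (12.19), Lama5 (9.70) and Col4a2 (8.89). Tnc, tenascin C, had 15.22, 15.20 and 15.12. Col4a1, whose product pairs with that of Col4a2 in basement membranes, had 7.77, 7.55 and 7.55, under the bar, as were Col1a1 and Col3a1.

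Receptors were above the bar in 66 of 184 genes (35.9%), more than the 28.5% of all genes and the 33.2% of protein-coding genes. Among 32 receptor tyrosine kinases 8 were above. Axl, a TAM receptor, had 15.91, 15.83 and 15.82, and Epha2, an ephrin receptor, 15.16, 15.10 and 15.16. Ddr2, a collagen receptor, had 12.84, 12.86 and 12.68, and Met, the receptor of Hgf, 11.75, 11.68 and 11.80. Igf1r (9.19), Flt1 (9.17), Erbb2 (8.41) and Ephb4 (8.22) followed. Egfr was listed at 4.43 on all 3 arrays, Fgfr1 at 4.64 and Kit at 4.29, all under the median of the negative controls. Of the TGF-beta family, Wnt and Notch receptors 15 of 26 were above, including both chains of the TGF-beta receptor, Tgfbr2 (11.02) and Tgfbr1 (9.58), the BMP receptors Bmpr1a (11.85) and Bmpr2 (9.83), the Wnt co-receptors Lrp5 (12.51) and Lrp6 (11.36), and Smo (12.70), the Hedgehog transducer.

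Cytokine and TNF family receptors were above in 16 of 30 genes, the chemokine receptors in 0 of 19. Il4ra, shared by IL-4 and IL-13, had 13.25, 13.21 and 13.19, Tnfrsf10b, the death receptor of TRAIL, 13.07, 13.00 and 13.05, and Il1r1 11.23, 11.25 and 11.23. Both chains of the type I and of the type II interferon receptor were above, Ifnar1 (10.95) and Ifnar2 (9.70), Ifngr2 (9.81) and Ifngr1 (9.22), as was Il6st (10.99), the shared chain of the IL-6 family. Fas was counted at 9.24 through a cluster whose identifier places it on chromosome 17, while the cluster on its own chromosome 19 had 7.54, under the bar. In shSnail the chromosome 19 cluster was lower (-1.41, limma adjusted p = 0.0166). The chromosome 17 cluster was not called (0.60, limma adjusted p = 0.557), so the counts of listed genes below leave Fas out of the lower calls. The highest chemokine receptor was Ccr7 at 5.80, and Cxcr2 was listed at 5.23 on every array.

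Of 20 nuclear receptors 4 were above, Pparg (12.91, 12.81 and 12.70), Nr3c1 (10.31), the glucocorticoid receptor, Rara (9.91) and Nr4a1 (8.81). Of 17 Toll-like and related sensors 4 were: Sting1 (13.59) and Cgas (9.24) of the cytosolic DNA pathway, the adaptor Myd88 (10.32), and Tlr4, listed at 11.08 on all arrays. Tlr4 and Cd14, partners in the recognition of lipopolysaccharide, were thus both above, with Tlr2 and Tlr3 at 5.77 and 5.92. Among 20 integrin subunits 9 were above, and Itgb1 (15.30), Itga3 (15.05) and Itga6 (14.00), which form laminin receptors, led. For antigen presentation and checkpoints 10 of 20 were above. B2m, the light chain of MHC class I, had 17.67, 17.68 and 17.67, and the heavy chains H2-K1 and H2-D1 11.32 and 10.20. Tap1 and Tap2, the peptide transporter, had 5.77 and 5.24. Cd47 (13.88), a signal against phagocytosis, Cd276 (12.91), Pvr (11.13) and Lgals9 (10.92) were above, whereas Cd274, which encodes PD-L1, had 5.93, 5.80 and 5.77.

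Ligand and receptor genes were set side by side for 22 known pairs, chosen after the values had been seen. In 13 pairs only the ligand was above the bar, in 7 both were, and in 2 only the receptor. This split follows from the choice of pairs, and no share over all known pairs was taken. The first kind held the chemokines with Cxcr2, Ccr2 and Cx3cr1, Csf1 with Csf1r, Kitl with Kit, and all 4 EGF family ligands with Egfr. These last 4 pairs rest on the single Egfr row, which had the same value on every control array. Cxcr2, Csf1r and Kit were likewise each listed at an equal value on every control array. Whether these rows respond to their transcripts was not tested, so the receptors cannot be called absent. Both sides were above for Tgfb1 with its 2 receptors, Bmp4 with Bmpr1a and Bmpr2, Lif with Il6st though not with Lifr (3.89), Vegfa with Flt1 though not with Kdr (4.17), and Efnb2 with Ephb4. Axl and Met were above while their ligands Gas6 and Hgf were listed at 4.29 and 3.84, and the response of these 2 ligand rows was not tested either. Erbb2, which has no ligand of its own and pairs with Egfr, was above the bar at 8.41.

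**Figure D4:**
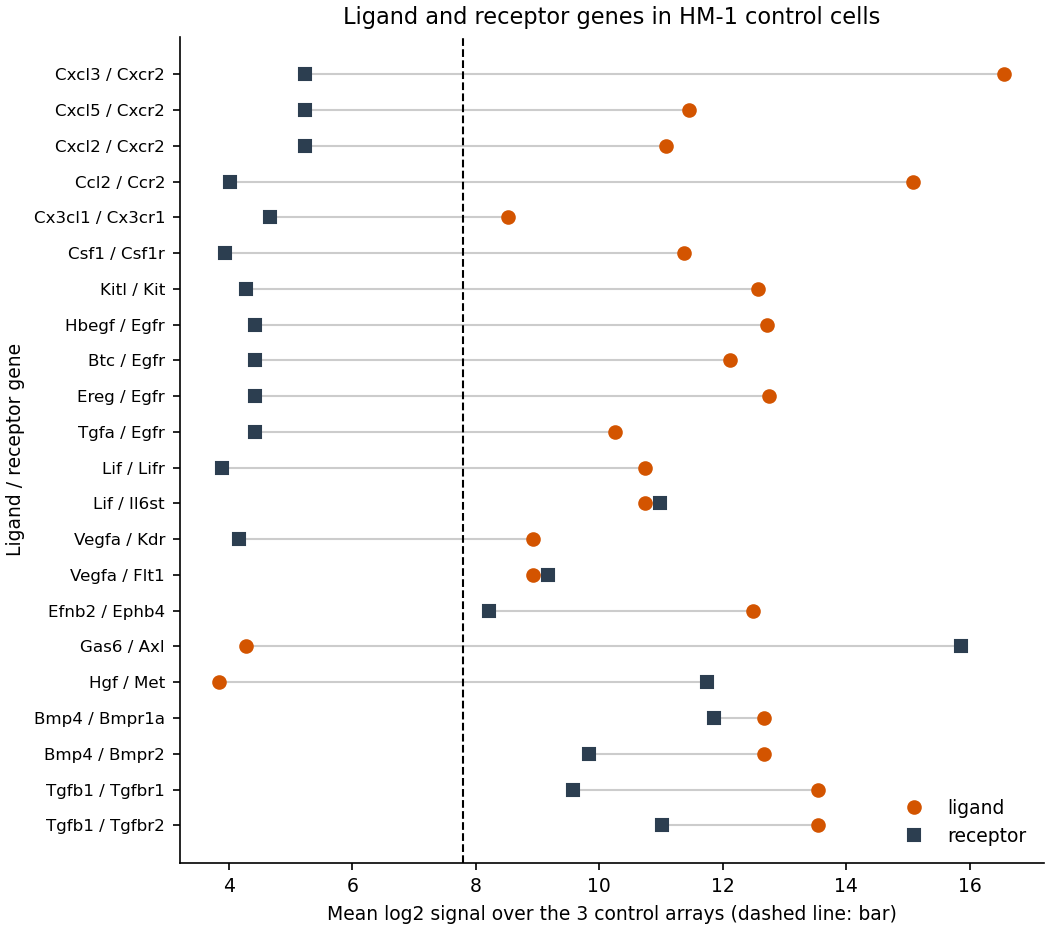
Mean log2 signal over the 3 control arrays (x axis) of ligand genes (circles) and receptor genes (squares), 1 pair per row, with the bar as a dashed line. In 13 of 22 rows only the circle is to the right of the bar, and in the rows of Gas6 with Axl and Hgf with Met only the square is. The pairs were chosen after the values had been seen, so the counts describe these pairs only.

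Growth genes were nearly all above the bar. This held for 19 of 22 cell cycle genes with a median of 13.26, for 18 of 22 oncogenes and tumour suppressors with a median of 9.66, and for 14 of 14 housekeeping genes. Mki67 (14.67, 14.77 and 14.70), Top2a (15.12, 15.08 and 15.01) and Ccna2 (14.70, 14.70 and 14.68) are genes of dividing cells. Ccnd2, Ccnd3 and Birc5 were the 3 cell cycle genes below, at 4.19, 6.55 and 7.46. Myc had 13.02, 13.02 and 13.09, and Hmga2, a chromatin protein of embryonic and transformed cells, 13.05, 12.95 and 13.08. The p53 targets Cdkn1a (15.26, 15.25 and 15.30), the cell cycle inhibitor p21, and Mdm2 (13.67, 13.61 and 13.65) were far above. Cdkn2a and its neighbour Cdkn2b, inhibitors of Cdk4 and Cdk6, were listed at 4.46 and 4.49 on every array, while Cdk4 (14.04) and Cdk6 (13.61) were above.

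The brightest rows of the table were mostly not ordinary genes. Of the 20 one-symbol clusters with the highest control signal 12 were pseudogenes, led by Gm10359 (18.97, 19.03 and 19.03), and the ribosomal RNA mt-Rnr1 and the small nuclear RNA Rn7sk were among them. The 5 protein-coding names in this set were 4 clusters of Hspa8 and 1 of Tuba1c, all with identifiers on other chromosomes than the gene itself. Rows of this kind can share probes with near-identical copies, and their signal cannot be assigned to 1 locus. At their own loci the brightest protein-coding clusters were Pabpc1 (18.18, 18.13 and 18.14), which binds poly(A) tails, Vim, Rpl4, Tuba1c, Eef1a1, B2m, the histone H2ac10, Actb, Lgals1 and Ctsl. By type, 33.1% of protein-coding, 36.7% of pseudogene and 1.71% of lncRNA clusters (55 of 3218) were above the bar. Malat1, an abundant nuclear lncRNA, had 14.50, 14.73 and 14.80.

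Of clusters above the bar 7 had a range over 1 log2, and the 10 widest comprised 4 small nuclear RNAs, 2 small nucleolar RNAs, the ribosomal n-R5s136, Mir466d, the lncRNA Neat1 (9.20, 9.52 and 10.34) and Cxcl5. The largest range was 1.25, of the small nuclear RNA Gm26122. Among protein-coding clusters at their own locus the 10 widest were Cxcl5, Cxcl2, Riox1, Itih5, Stc1, Lipn, H1f2, Hgh1, Polr2l and Mmp10. In 6 of these 10, among them Cxcl5, Cxcl2, Stc1 (13.12, 13.67 and 13.00), a secreted glycoprotein, and Mmp10 (11.24, 11.62 and 10.98), control replicate 2 was the highest array. Its own bar, 7.97, was also above those of control replicates 1 and 3, 7.82 and 7.90, and the part of this in the spread was not tested.

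HM-1-shSnail cells were compared to ask which baseline levels depend on the hairpin. The 4 shSnail arrays had higher negative control levels, with own bars of 8.07 and 8.05 for sh1 and 8.39 and 8.35 for sh2, and their part in the differences was not tested. Read against the same bar of 7.79, 145 of the 8650 clusters above it in control were below it in shSnail and 127 others were above it. In limma with Benjamini-Hochberg adjustment over all 65770 clusters, 284 clusters were lower (0.432%) and 138 higher (0.21%) in shSnail at an adjusted p under 0.05. Leaving out control replicate 1, 2 or 3 brought these to 68 and 36, 58 and 33, or 132 and 44, and leaving out sh1 replicate 1 or 2, or sh2 replicate 1 or 2, to 79 and 37, 83 and 43, 116 and 57, or 110 and 64. By gene, 240 were lower (0.796%) and 109 higher (0.362%) of 30137. Among 624 listed genes 30 were lower and 7 higher. The secreted genes made up 19 of the lower and 4 of the higher calls among 178, the receptors 8 and 1 among 184, the lineage genes 2 and 2 among 134, the growth genes 1 and 0 among 58, and the other cell types 1 and 0 among 81, with a gene counted in each group that lists it. The lists were drawn up with earlier results of these arrays known, so their counts are no independent evidence.

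With each of the 7 arrays left out in turn, the differences of the 37 listed calls stayed between 87.2% and 114% of their size with all arrays. The calls were selected on these same arrays for a difference large against the spread, so a narrow range was likely beforehand. Of the 37 calls 6 stayed past the test whichever array was left out. Ccl2 had 15.08, 15.26 and 14.91 in control against 8.92, 9.12, 8.98 and 9.11 in shSnail, a difference of -6.06 on the log2 scale (SE 0.10, limma adjusted p = 7.26e-05). Cxcl16 went from 8.48, 8.39 and 8.39 to 6.94, 6.96, 6.94 and 6.97 (-1.47, SE 0.03, limma adjusted p = 9.48e-05). These 2 were called under every alternative run. Cxcl5 was at 7.20, 7.20, 7.38 and 6.87 in shSnail (-4.29, SE 0.25, limma adjusted p = 0.00613). Cxcl2 was at 7.38, 7.59, 7.37 and 7.28 (-3.68, SE 0.19, limma adjusted p = 0.0044). All 3 CXC genes thus passed from above to below the bar. Csf3, the granulocyte growth factor, was under the bar in both groups, with means of 4.89 and 4.11 (limma adjusted p = 0.00494). Aldh1a1 was higher, with 8.49, 8.76, 8.53 and 8.53 against 7.002, 7.10 and 7.01 in control (1.54, SE 0.07, limma adjusted p = 0.00333), and it passed from below to above the bar.

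For the other 31 the adjusted p lay between 0.0509 and 0.181 where the test was missed without an array. Cxcl3 was at 14.68, 14.85, 14.89 and 14.37 in shSnail, a difference of -1.86, but far above the bar in both groups. Its adjusted p was 0.0125 in limma, and between 0.0514 and 0.0729 without control replicate 1, 2 or 3 or sh1 replicate 1, while the difference stayed between -1.75 and -1.93 without any 1 array. Cdkn1a differed by -0.31 (limma adjusted p = 0.00826, and 0.0509 without control replicate 1). Tnfrsf1b, a TNF receptor, differed by -0.97 (limma adjusted p = 0.00937) and Fzd5, a Wnt receptor, by 1.20 (limma adjusted p = 0.00728); without control replicate 2 these became 0.0604 and 0.0541. For the keratins Krt8 and Krt18, Vim, Cdh1 and Epcam the limma test was not passed. On the shSnail arrays their means were 16.52, 16.81, 17.89, 3.79 and 4.17. By western blot the paper reports more E-cadherin and less vimentin protein in HM-1-shSnail cells. Whether the Cdh1 and Vim rows can show such a change was not tested. Cdh1 lay under the median of the negative controls, and Vim lay near the top of the signal range. Where a call was not passed, a difference smaller than the arrays can resolve is possible.

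**Figure D5:**
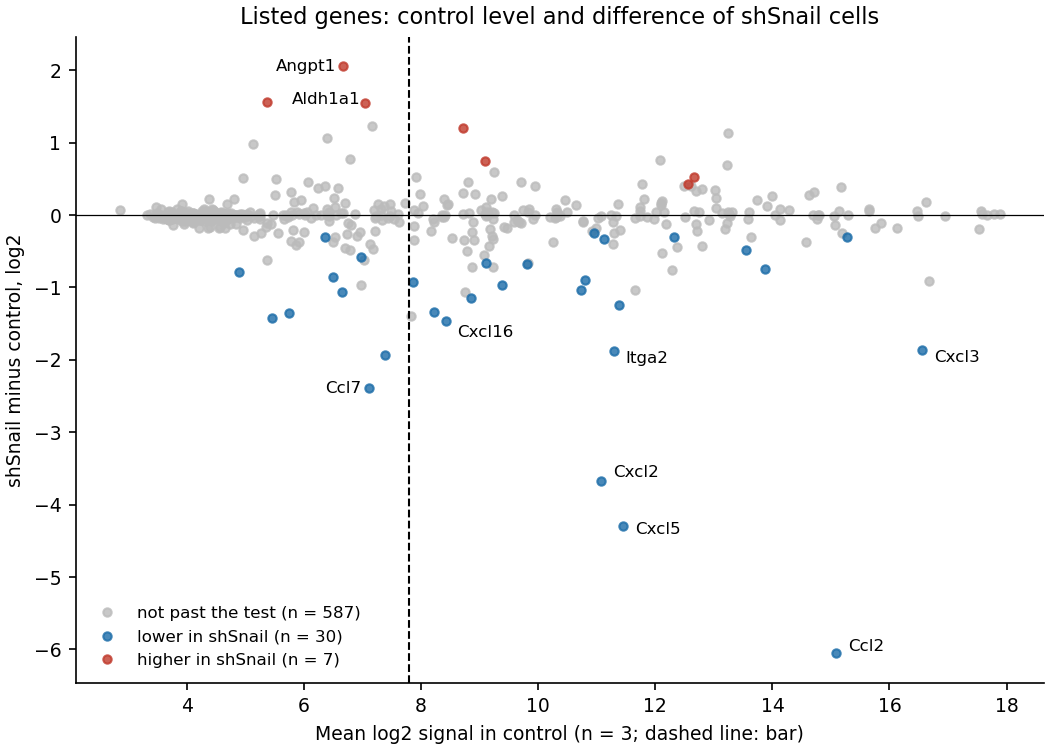
Difference of shSnail (n = 4) from control (n = 3) in log2 signal (y axis) against the mean control signal (x axis) for the 624 listed genes, with the bar as a dashed line. Ccl2, Cxcl5 and Cxcl2 are the lowest points, at -6.06, -4.29 and -3.68, and most genes lie near 0.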

How the data were processed

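Total RNA of 7 samples was labelled with biotin and hybridised to Affymetrix mouse transcriptome arrays, 3 of HM-1-control, 2 of sh1 and 2 of sh2 cells. The authors made the deposited log2 signals, 1 column per array, in Transcriptome Analysis Console and Affymetrix Expression Console; of their versions, background correction and probe summary nothing is given in the sources used here. No further normalization was applied, and 0 value columns were left out. Equal values between arrays are in the table as deposited and lower the measured spread.

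Symbols came from the platform's annotation. Of 65770 clusters 30473 had 1 symbol, 2176 several and 33121 none, and 30141 of the first matched a RefSeq gene (GRCm38.p6). A gene was represented by its cluster with the highest mean over the 7 arrays. Clusters were called above the bar, the 95th percentile of the negative control row means, with no test. Control was compared with shSnail by limma 3.58.1 (lmFit, eBayes, 2 groups) under R 4.3.3, calling an adjusted p under 0.05 (Benjamini-Hochberg, all clusters). An alternative used a one-way analysis of variance over 3 groups, control, sh1 and sh2. It took the study's thresholds, an unadjusted p of 0.0005 and a change over 2-fold. The paper does not state the groups of its own analysis of variance. Its p-value for Sele is smaller than the 2.01e-04 of this 3-group analysis of variance, so the study's test may have been another. The fit was tested on simulated data with 200 changed clusters. It recovered 96% of changes of 1.5 log2 and 98% of changes of 3 log2, with 11 false calls. The simulated noise was independent and normal, without ties or a hairpin difference, so the result does not carry over to the calls on these arrays.

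Genes were named as the 20 highest clusters, the 10 with the widest control range, the 3 on each side of the bar, the highest members of each of 34 lists above and below the bar, Snai1, and list members past the test. Genes of the same pathway, families or microRNA group outside this rule, the pairs and the motif were picked with their values in view. The members and lists were chosen with earlier results of these data known. The number of arrays limits the precision. Arrays were grouped by their labels, and the alternatives were other bars, normalizations, filters, groupings and the removal of each array.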

Additional observations from a re-analysis of the deposited data

Results flagged for a closer look

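Rows outside the ranking also carried signal on the control arrays. Of 33121 clusters without a symbol 2197 were above the bar (6.63%), the highest at 18.93, and of 2176 clusters with several symbols 524 were (24.1%), the highest at 18.66. They were not used above, since they name no single gene.

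Among the 37 listed genes past the test, 4 had 1 of the 4 shSnail arrays apart from the other 3, measured as its gap to the nearest array over the whole range. The ratios were 0.968 for Elf3 (sh2 replicate 2 lowest), 0.843 for Aldh1a1 (sh1 replicate 2 highest), 0.904 for Csf3 (sh2 replicate 1 highest) and 0.843 for Pvr (sh1 replicate 2 lowest), all past the critical value of Dixon's test for 4 values. For 4 independent values from the same normal distribution, chance alone marks about 1 in 20 groups. These arrays were of both hairpins and the deposited values hold ties, so the rate here is not known.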

How the results depend on the processing

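The count of 8650 clusters above the bar moved with the bar. It was 3144 at the 99th percentile of the negative controls and 16013 at their median, and 8531 to 8592 without any 1 control array. Of the 624 listed genes 194 were above, and 190 to 194 without 1 control array. At the 99th percentile 89 were, and 21 of 34 lists moved by over 1.5 times, against 6 at the 90th percentile and 0 with quantile normalization or without 1 control array.

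The count of shSnail calls moved with the processing. The main fit gave 284 lower and 138 higher clusters, 97 and 25 of them by over 2-fold. The 3-group fit gave 312 lower and 321 higher, so the lower calls were not the more numerous there. A filter at the 40th percentile gave 403 lower and 217 higher, and quantile normalization 592 lower and 254 higher. Centring each array gave 391 lower and 218 higher, with 39 of the higher past 2-fold. The one-way analysis of variance over 3 groups gave 9 lower (5 past 2-fold) and 6 higher (0 past 2-fold) after adjustment. Before adjustment 2006 and 2901 had a p under 0.05. With an unadjusted p under 0.0005 and a change over 2-fold there were 42 and 15, fewer than the paper lists. Without 1 array the counts ran from 58 to 132 lower, 29 to 54 by over 2-fold, 33 to 64 higher and 10 to 17 by over 2-fold. Without both sh2 arrays, an alternative added after the data were seen, they were 22, 15, 17 and 6, and 3 of the 37 listed calls held. With the replicate number as a block, limma gave 8 lower (7 past 2-fold) and 0 higher (0 past 2-fold), with 3249 and 2892 at an unadjusted p under 0.05, and 2 of 37 listed calls held. The numbers did not pair the arrays: deviations of control and shSnail arrays with the same number correlated at -0.07 to -0.21, and those of sh1 and sh2 at 0.16. No listed call was reversed by any of 16 alternatives. These refit the same arrays for genes already past the test, so a reversal was unlikely beforehand. The cause of the lost calls was not tested. Probes with low response and 3 arrays limit what a signal near the bar can show.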

Other observations

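Several genes outside the lists, picked after their values were seen, were also above the bar in HM-1-control cells. Sele, E-selectin, an adhesion molecule usually studied in endothelium, had log2 signals of 10.68, 10.80 and 10.44 on control replicates 1, 2 and 3, while Pecam1 and Cdh5 were under the bar. On the shSnail arrays it had 7.40, 7.55, 7.26 and 7.83, a mean under the bar with sh2 replicate 2 above it (-3.13, SE 0.16, limma adjusted p = 0.0044). The limma adjusted p was 0.0646 with the replicate block and 0.0578 without both sh2 arrays, and that of the analysis of variance over 3 groups was 0.107. Slc2a1, the glucose transporter GLUT1, had 15.29, 15.28 and 15.14, and Zfp36l2, an RNA-binding protein that promotes mRNA decay, 14.57, 14.67 and 14.56. Malat1 and Neat1, nuclear lncRNAs, had their highest values on the 2 sh2 arrays, 15.90 and 15.77 for Malat1 and 11.90 and 12.14 for Neat1, and neither passed the limma test of shSnail against control (adjusted p = 0.236 and 0.463). Between the hairpins, limma called 0 clusters, with 3950 at an unadjusted p under 0.05.

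Genes of the let-7 family, whose mature forms share 1 seed and repress Hmga2 and Lin28, were read against the bar one by one, and 3 of them lie together on chromosome 13. The mature strands are shown with the seed, bases 2 to 8, in capitals (RefSeq, GRCm38.p6, minus strand of chromosome 13).
mmu-let-7d-5p: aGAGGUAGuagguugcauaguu
mmu-let-7f-5p: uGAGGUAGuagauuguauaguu
mmu-let-7a-5p: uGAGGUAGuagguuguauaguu
Mirlet7d had 8.59, 9.10 and 8.89 on the control arrays, above the bar. Mirlet7f-1 had 6.82, 6.53 and 6.45 and Mirlet7a-1 4.75, 4.79 and 4.73, both below it. Elsewhere in the genome Mirlet7g and Mirlet7i were below it too, with means of 3.28 and 4.16. These rows cover the microRNA genes and do not measure the mature strands, and Hmga2, a let-7 target, was above the bar.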
